A study of Mus musculus with 2 samples.

Results

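The 10 genes described here are a list of names with no measured value in its rule, drawn up with earlier results of these data known: Nfe2l2, Nfe2l1, Keap1, Bach1, Mafg, Nqo1, Sod1, Sod2, Sod3 and Txnip. All 10 were found among the 35275 genes of the table, and all 10 had at least 10 reads over both libraries. The study asked how hepatocytes change when they become senescent, and used AML12, a non-transformed mouse hepatocyte line that was established from the liver of a mouse carrying a human transforming growth factor alpha transgene. The labels give the source of the line as the liver of a male CD-1 mouse aged 3 months. Control cells received no peroxide, and senescent cells received hydrogen peroxide on 6 days, starting with 1 mM and continuing with 750 μM, each time for 1 h before 23 h of recovery. Each condition was a single RNAseq library made from the pooled RNA of 3 samples, so a ratio below compares 2 libraries and has no replicate check.

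NRF2, the product of Nfe2l2, is a transcription factor that switches on genes for glutathione synthesis, thioredoxin reduction and drug conjugation. KEAP1 holds it in the cytoplasm and delivers it to a CUL3 ubiquitin ligase, and oxidation of KEAP1 cysteines lets NRF2 escape. In the nucleus NRF2 pairs with a small MAF protein such as MAFG on the antioxidant response element, and BACH1 occupies the same element as a repressor. NRF1, the product of Nfe2l1, is a related factor held in the endoplasmic reticulum that raises proteasome genes when proteasome activity is short. Superoxide dismutases turn superoxide into hydrogen peroxide, NQO1 reduces quinones by a pair of electrons at once and is a classical NRF2 target, and TXNIP binds thioredoxin and restrains glucose uptake.

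The control library held 28021941 reads and the senescent library 25738075, and 14383 genes with at least 10 reads over both were compared. Ratios are senescent over control on the log2 scale after TMM scaling, and the brackets that follow a ratio hold its 95% interval, which covers counting error only. Of 8 hepatocyte markers measured, 2 were lower past 1.5 and 3 past 1, beside 5.60% and 9.98% of all genes. None was higher past 1, beside 5.09%. The interval lay above 0 for 4 and below 0 for 4, beside 34.0% and 34.6%, and the median log2 ratio was -0.39. Albumin, Alb, had 32076 reads in control and 2917 in senescent cells, a log2 ratio of -3.23, and the apolipoprotein Apoa1 had 2026 and 197 reads, a ratio of -3.13. Serpina1a and Ttr, which encode other secreted proteins of hepatocytes, had ratios of -1.42 and -0.91. Krt8, a keratin, had 119403 and 144783 reads, a ratio of 0.51, and Krt18 and Apob had ratios of 0.82 and 0.41. The transcription factor Hnf4a had 8187 and 7705 reads, a ratio of 0.14 after scaling. The 6 fibroblast and stellate markers summed to 21 reads in control and 7 in senescent cells, with Col1a2 and Lum at 0, and the 5 endothelial markers summed to 6 and 13 reads. The 5 macrophage markers summed to 76 and 156 reads, with Adgre1 and Clec4f at 0 in both, and 2 of the 3 measured were higher past 1.5, as were 2.71% of all genes. Of 7 genes of cell cycle arrest and senescence, none passed 1.5, beside 2.71% of all genes higher and 5.60% lower. Their median log2 ratio was 0.09. Cdkn1a, which encodes the arrest protein p21, had 6182 and 9869 reads, a ratio of 0.90. Cdkn2a had 437 and 149 reads, a ratio of -1.32 [-1.60, -1.05], and was the 1 gene lower past 1, beside 9.98%. By RT-qPCR the study reported more mRNA of both Cdkn1a and Cdkn2a in its senescent AML12 cells, so the Cdkn2a count here goes the other way. Ratios of the others were 0.46 for Cdkn2b, 0.18 for Top2a, 0.09 for Ccnb1, -0.30 for Lmnb1 and -0.79 for Mki67. In bulk RNA, fewer cells expressing a gene and less of its RNA per cell cannot be told apart.

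Txnip was the member with the lowest log2 ratio, and Nqo1 the one with the highest, but neither passed the study's threshold of 1.5. Past 1.5, 0 of 10 members were higher, against 2.71% of all genes tested, and 0 were lower, against 5.60%. Past 1, Nqo1 was the 1 member higher, against 5.09% of all genes, and Txnip the 1 member lower, against 9.98%. The counting interval lay above 0 for 4 members (Nfe2l1, Bach1, Mafg and Nqo1), against 34.0% of all genes, and below 0 for 5 (Txnip, Keap1, Sod2, Nfe2l2 and Sod1), against 34.6%. The Sod3 interval held 0. With 10 genes, these counts are not read as a result about the members as a group. Their median log2 ratio of -0.19 stood beside -0.02 for all genes tested. If replicates are assumed to vary with a coefficient of 0.1, a normal interval that includes this variation lay above 0 for 2 members, Nfe2l1 and Nqo1, and below 0 for 2, Keap1 and Txnip, and at 0.4 for none. For Nqo1 and Sod3, which have few reads, the normal interval at 0.1 was narrower than the exact one, so it is no stricter check of them.

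**Figure D1:**
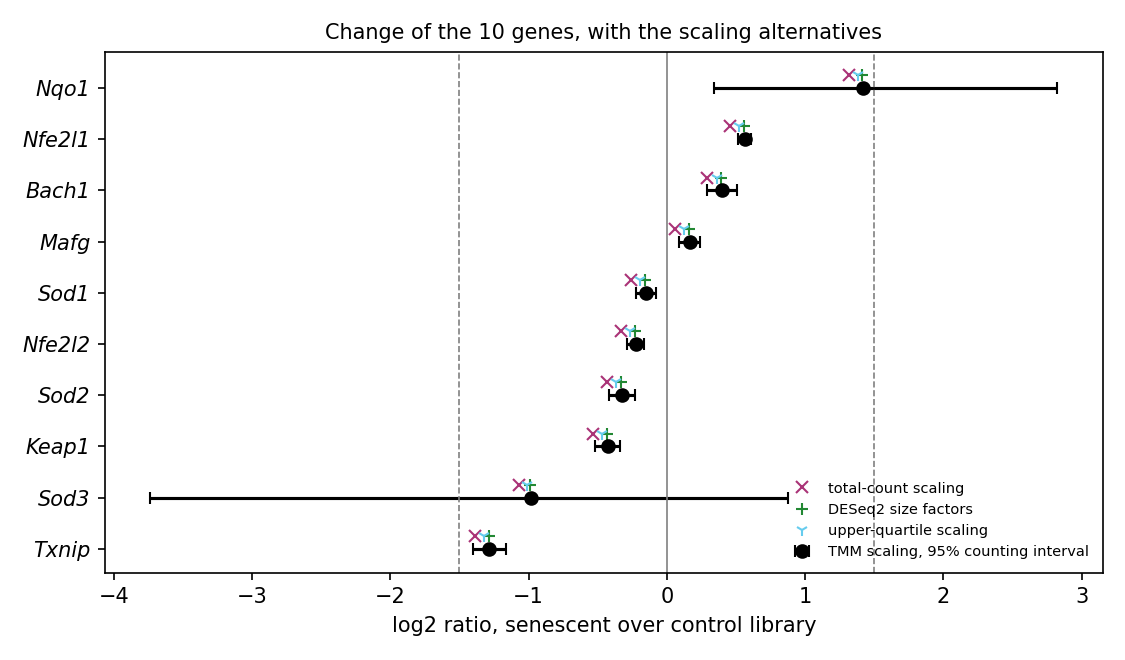
The x axis is the log2 ratio of senescent over control and each line is a member, with black points and 95% counting intervals for TMM scaling and crosses for total-count, DESeq2 and upper-quartile scaling. No point passes the dashed lines at 1.5 and -1.5, and only Nqo1 and Sod3 have wide intervals.

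**Figure D2:**
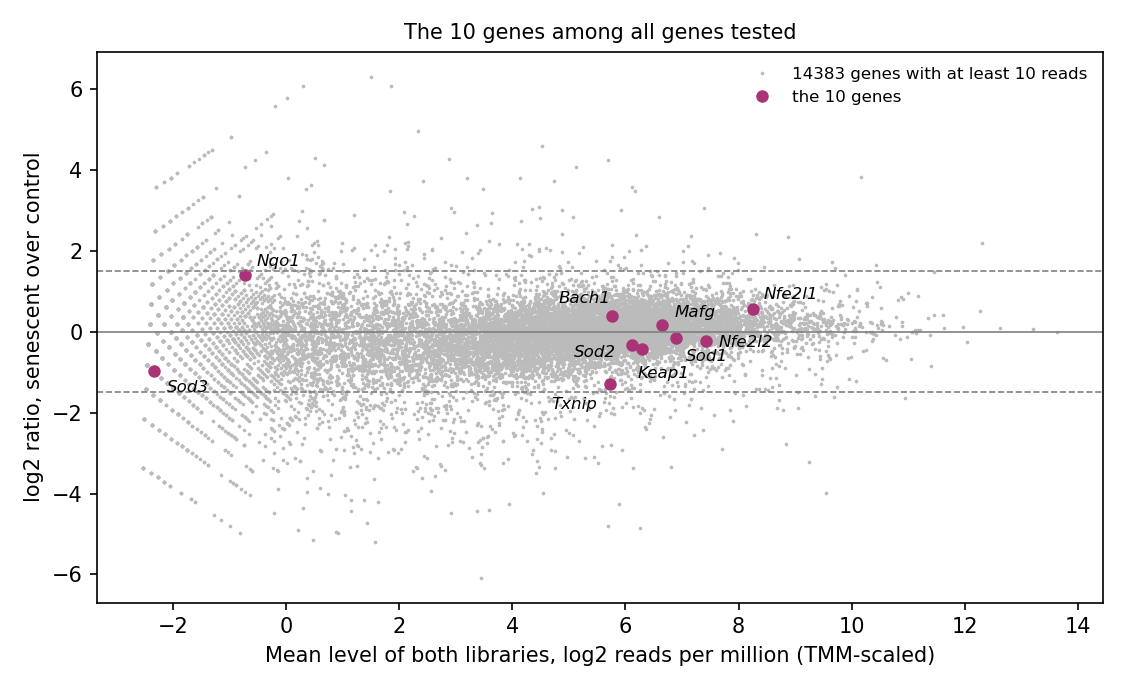
Each grey point is 1 of 14383 genes, with the mean level of both libraries in log2 reads scaled to library size on the x axis and the log2 ratio on the y axis, and the 10 members are marked. Nqo1 and Sod3 lie at the low end, where points scatter most, and Txnip lies below the bulk of genes of its level.

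Among the NRF2 regulators, the messages for NRF2 and its captor were slightly less abundant in senescent cells and those for its competitor and partner slightly more. Nfe2l2 (2:75675513-75704641, minus strand, GRCm38) had 5407 reads in control and 3940 in senescent cells, a log2 ratio of -0.23 [-0.29, -0.17]. Keap1 (9:21229730-21239361, minus strand), the captor and adaptor of NRF2, had 2616 and 1657 reads, a log2 ratio of -0.43 [-0.52, -0.34]. Reads of Keap1 and of Gm16754, a gene on the other strand that overlaps its exons, cannot be told apart if counting ignored strand, and Gm16754 itself had 156 and 83 reads. Bach1 (16:87698945-87733346, plus strand), the repressor, had 1366 and 1536 reads, a log2 ratio of 0.40 [0.29, 0.51]. Mafg (11:120625117-120633600, minus strand), the small MAF partner, had 2742 and 2622 reads, a log2 ratio of 0.16 [0.09, 0.24], which total-count scaling moved to 0.06 [-0.02, 0.14]. Its exons overlap those of Sirt7, with 1838 and 1825 reads. Of all genes tested, 27.1% had a lower ratio than Keap1, and 77.4% a lower ratio than Bach1.

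Ratios between members within a library do not depend on the scaling. Keap1 had 0.484 reads per Nfe2l2 read in control and 0.421 in senescent cells, a log2 difference of -0.20 [-0.31, -0.09]. Bach1 had 0.253 and 0.390 reads per Nfe2l2 read, a log2 difference of 0.63 [0.50, 0.75]. This difference was larger than that of Keap1. BACH1 and NRF2 compete for the same DNA element as proteins, and these read ratios measure neither protein amount nor binding. Bach1 per Keap1 went from 0.522 to 0.927, a log2 difference of 0.83 [0.69, 0.97], and Mafg per Nfe2l2 from 0.507 to 0.665, a difference of 0.39 [0.29, 0.49].

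Of the other partners of the same families, 3 of 5 had enough reads to be compared. Mafk, another small MAF, had 1242 and 2223 reads, a log2 ratio of 1.07 [0.97, 1.17], whereas Maff had 3183 and 2916 reads, a ratio of 0.10. Nfe2, the blood-cell relative of NRF2, had 13 reads in control and 1 in senescent cells, a log2 ratio of -2.64 [-8.88, -0.74]. On these few reads it was the 1 of 3 measured partners past 1.5, beside 5.60% of all genes lower past it. Bach2 had 1 and 2 reads, and Nfe2l3 had none in either library. Of the 12 genes of NRF2 and NRF1 turnover and processing, none passed 1.5, beside 2.71% of all genes higher and 5.60% lower. The median was 0.13. The highest was Sqstm1, whose product p62 binds KEAP1 and leads it to autophagy and which is itself an NRF2 target, with 15497 and 29298 reads and a log2 ratio of 1.15 [1.12, 1.18]. Cul3, the ligase scaffold, had 7382 and 6458 reads, a ratio of 0.04 [-0.01, 0.09].

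Nfe2l1 (11:96817414-96829968, minus strand) had the highest log2 ratio among the members with more than 1000 reads in each library. It had 7160 reads in control and 9012 in senescent cells, a log2 ratio of 0.56 [0.52, 0.61], and 84.7% of genes tested had a lower ratio. Nfe2l1 per Nfe2l2 went from 1.32 to 2.29 reads, a log2 difference of 0.79 [0.71, 0.86]. NRF1 is activated after DDI2 cuts it, and Ddi2 had 1649 and 2356 reads, a ratio of 0.74. Syvn1, which encodes the ligase that degrades NRF1 at the endoplasmic reticulum, had 3742 and 2458 reads, a ratio of -0.38. Ngly1 and Vcp, of the same turnover and processing list, had ratios of -0.33 [-0.46, -0.19] and 0.26. Whether any of these genes bears on NRF1 activity was not tested.

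The 250 bases before the annotated start of a gene were read from RefSeq (GRCm38.p6) for 9 of 10 members, in 13 windows, and searched on both strands for the core letters of the antioxidant response element, TGACNNNGC. Of the members, 3 had a match, as did 11.5% of 27025 genes with a window. Whether these shares differ was not tested. The matches are shown because NRF2 and MAFG bind this element and Sod1 is a superoxide enzyme. A match in these letters is not evidence of binding, and the window of Nqo1, a classical NRF2 target, held none. Capitals mark the matched letters, printed along the gene's own strand, and the Mafg and Sod1 matches are on the opposite strand. The Nfe2l2 match lies at chr2:75704895-75704903, the Mafg match at chr11:120633761-120633769 and the Sod1 match at chr16:90220706-90220714.
Nfe2l2: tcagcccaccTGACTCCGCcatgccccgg
Mafg: ctctgcaggaGCACGGTCAacccggcgag
Sod1: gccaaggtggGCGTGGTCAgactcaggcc

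Nqo1 (8:107388225-107403206, minus strand), the quinone reductase often used as a readout of NRF2, was barely detected in both libraries. It had 9 reads in control and 22 in senescent cells, a log2 ratio of 1.41 [0.34, 2.82]. Per length this was 0.199 RPKM (0.091 to 0.378) in control and 0.571 RPKM (0.358 to 0.865) in senescent cells, and these intervals overlap slightly. RPKM is reads per kilobase of the gene's exons, scaled to library size by TMM. Among Nqo1 and 34 other NRF2 target genes, Gpx2 alone was lower per length in control, and Gpx2 and Ugt1a6a in senescent cells, while the target median was 30.1 RPKM in control and 43.4 RPKM in senescent cells. The log2 ratio of Nqo1 depended on the prior count, at 1.51 with the smaller alternative, past the threshold, and 1.12 with a prior count of 5.

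Of 11 other quinone and carbonyl reductases, none passed 1.5, beside 2.71% of all genes higher and 5.60% lower. The interval lay below 0 for 9 and above it for 2, where all genes had 34.6% and 34.0%. The median log2 ratio was -0.41, beside -0.02 for all genes. Nqo2, the paralog of Nqo1, was well expressed, with 2181 and 1441 reads and a log2 ratio of -0.37 [-0.47, -0.27]. The lowest was Cbr3, with 57 and 20 reads and a ratio of -1.24. Next were Cbr4 with 450 and 206 reads and Akr1b3 with 2429 and 1116 reads, both with a ratio of -0.89. Cbr1 had 942 and 437 reads, a ratio of -0.88. The highest was Aifm2, which encodes the ubiquinone reductase FSP1, with 454 and 580 reads and a ratio of 0.58.

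The NRF2 target genes spread in both directions. Of 33 targets measured, 3 were higher past 1.5 and 2 lower, beside 2.71% and 5.60% of all genes. The interval lay above 0 for 19 and below 0 for 9, beside 34.0% and 34.6% of all genes, and the median log2 ratio was 0.17. The canalicular exporter Abcc2 had 390 and 2690 reads, a log2 ratio of 3.01 [2.86, 3.17], the cystine carrier Slc7a11 256 and 874 reads, and Gsta2 63 and 165 reads, a ratio of 1.60 [1.19, 2.06]. On the other side were Ugt1a6a, a glucuronosyltransferase with 121 and 28 reads and a ratio of -1.85 [-2.53, -1.28], and Gstm1 at -1.52. The glutathione transferases and Ugt1a6a have near-identical copies or shared exons, so their counts are uncertain. The subunits of glutamate-cysteine ligase, named after their values were seen, lay apart, with Gclc at 27309 and 42273 reads and a ratio of 0.86 and Gclm at 5485 and 3450 reads and a ratio of -0.44.

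**Figure D3:**
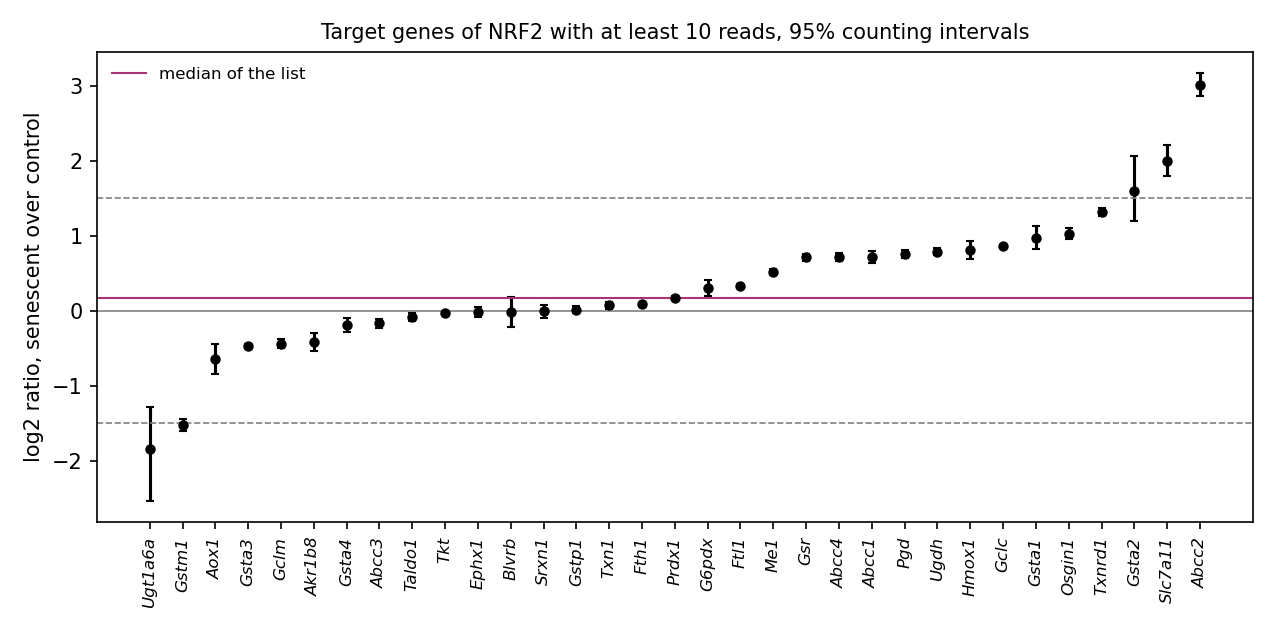
Each point is an NRF2 target gene with at least 10 reads, ordered by its log2 ratio of senescent over control on the y axis, with 95% counting intervals. The list runs from Ugt1a6a at -1.85 to Abcc2 at 3.01, with its median at 0.17.

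The superoxide dismutases of the cytosol and the mitochondrion had slightly fewer reads in senescent cells, and the secreted form was near the floor. Sod1 (16:90220754-90226329, plus strand), the copper and zinc enzyme of the cytosol, had 3638 and 2790 reads, a log2 ratio of -0.15 [-0.22, -0.08]. Sod2 (17:13006846-13040063, plus strand), the manganese enzyme of mitochondria, had 2254 and 1533 reads, a log2 ratio of -0.33 [-0.42, -0.23], and 16.2% of its 75-base words recur in other genes. Sod3 (5:52363791-52371418, plus strand), the extracellular enzyme, had 8 and 3 reads, a log2 ratio of -0.98 [-3.73, 0.87], which is not a detectable difference at this depth. Sod2 per Sod1 read went from 0.620 to 0.549, a log2 difference of -0.17 [-0.29, -0.05]. Per length, Sod1 gave 80.1% of the summed dismutase level in control and 82.0% in senescent cells, and by the principal transcript 93.6% and 94.3%.

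Of 7 measured genes in the list of metal supply to these enzymes, 5 had an interval below 0, beside 34.6% of all genes. None passed 1.5, beside 2.71% of all genes higher and 5.60% lower, and the median log2 ratio was -0.31. The list is not supply alone, as it holds the copper-exporting ATPases Atp7a and Atp7b, with ratios of 0.40 and -0.38. Atp7a was the 1 gene with an interval above 0, beside 34.0% of all genes. Ccs, the copper chaperone of SOD1, had 3358 and 2228 reads, a ratio of -0.36 [-0.44, -0.28], and Slc31a2, a copper carrier, had 690 and 291 reads, a ratio of -1.01. Of 9 enzymes that remove peroxide, none passed 1.5, beside 2.71% of all genes higher and 5.60% lower. Their median was -0.07, from Prdx4, a peroxiredoxin of the endoplasmic reticulum with 1431 and 535 reads and a ratio of -1.19, to a highest ratio of 0.17. Catalase, Cat, had 13268 and 7485 reads, a ratio of -0.60.

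Of 9 measured genes for enzymes that make superoxide or their subunits, 2 were lower past 1.5, beside 5.60% of all genes, and 5 were lower past 1, beside 9.98%. The median log2 ratio was -1.17, that of Noxo1, an oxidase organizer with 49 and 18 reads. Cybb, the NADPH oxidase NOX2, had 1904 and 355 reads, a log2 ratio of -2.19 [-2.36, -2.03], Nox4 had 1000 and 308 reads, a ratio of -1.47, and xanthine dehydrogenase, Xdh, 4910 and 1766 reads, a ratio of -1.25. The other gene past 1.5 was Rac2, a GTPase of blood cells, with 11 reads in control and 1 in senescent cells and a ratio of -2.42 [-8.66, -0.45]. Rac2 met the minimum of 10 reads only through the control library, so its place in the counts past 1.5 and 1 carries no weight. Rac1, a GTPase of oxidase assembly and of the cytoskeleton, was the highest, with 15605 and 22578 reads and a ratio of 0.76. Cybb is best known from phagocytes, and the macrophage markers, at 76 reads in control and 156 in senescent cells, were not lower. Their part in the result was not tested.

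Txnip (3:96557957-96561883, plus strand) had the lowest ratio of the members. It had 2180 reads in control and 763 in senescent cells, a log2 ratio of -1.28 [-1.41, -1.17] or 0.411 times the control level, and 7.55% of genes tested had a lower ratio. Per length this was 24.0 RPKM and 9.85 RPKM, with counting intervals that do not overlap. Gm15441 lies on the other strand over Txnip exons and had 56 and 19 reads, a ratio of -1.29 [-2.16, -0.56], which cannot be told apart from Txnip if counting ignored strand. Txnip per Sod1 read went from 0.599 to 0.273, a log2 difference of -1.13 [-1.27, -0.99].

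The carbohydrate response factor ChREBP, encoded by Mlxipl, acts with Mlx on paired E-boxes and is known to drive Txnip, and forkhead factors also act there. Mlxipl had 587 and 81 reads, a log2 ratio of -2.61, while its relative Mlxip and its partner Mlx went the other way, with ratios of 0.63 and 0.46. Whether any of these changes bears on Txnip was not tested. The alpha-arrestin Arrdc2 had 1363 and 276 reads, a ratio of -2.07 [-2.27, -1.89], but Arrdc1 had 664 and 884 reads, a ratio of 0.64, and Arrdc4 had 4 and 2 reads. Thioredoxin, Txn1, the partner that TXNIP binds, had 6275 and 5627 reads, a ratio of 0.07, and its reductase Txnrd1 had 4905 and 10421 reads, a ratio of 1.32. Of the 12 measured genes of this list, 2 were lower past 1.5, beside 5.60% of all genes. Their intervals lay above 0 for 7 and below 0 for 5, beside 34.0% and 34.6% of all genes, and the median was 0.12.

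The 250 bases before the Txnip start, chr3:96557707-96557956 on the plus strand of GRCm38.p6, are shown because Txnip was the only member past 1 downward. In capitals are GTAAACAA, the forkhead letters, 121 to 114 bases before the start, and a pair of E-box words of the form CACGNG with 5 bases between them, 85 to 69 bases before it. The E-box pair was found in 14 of 27025 genes (0.0518%) and the forkhead letters in 1.16%, on either strand, and none of the other members with a window held either. The letters of both searches were chosen after this window had been read, and a match is not evidence of binding.
Txnip: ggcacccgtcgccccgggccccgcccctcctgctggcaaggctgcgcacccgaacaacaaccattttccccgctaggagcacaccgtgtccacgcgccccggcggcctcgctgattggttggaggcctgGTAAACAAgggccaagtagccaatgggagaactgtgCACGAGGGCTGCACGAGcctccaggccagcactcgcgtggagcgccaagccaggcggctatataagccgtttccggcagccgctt

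Per length, the members spanned levels from Sod3 at 0.0736 RPKM in control to Nfe2l2 at 49.0 RPKM. In control cells the order ran from Nfe2l2 over Nfe2l1 (45.3 RPKM), Sod1 (31.5), Txnip (24.0), Keap1 (19.2), Mafg (16.8), Sod2 (7.74) and Bach1 (7.60) to Nqo1 and Sod3, and the intervals of Sod2 and Bach1 overlapped. In senescent cells Nfe2l1 came first at 66.8 RPKM, ahead of Nfe2l2 at 41.8 RPKM and Sod1 at 28.3 RPKM, Bach1 stood at 10.0 RPKM, and Txnip stood beside it at 9.85 RPKM, their intervals overlapping. The order depends on the length used. Over the principal transcript, Sod1 came first in both libraries, at 195 and 175 RPKM, because its exons together span 3970 bases and its principal transcript 641.

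**Figure D4:**
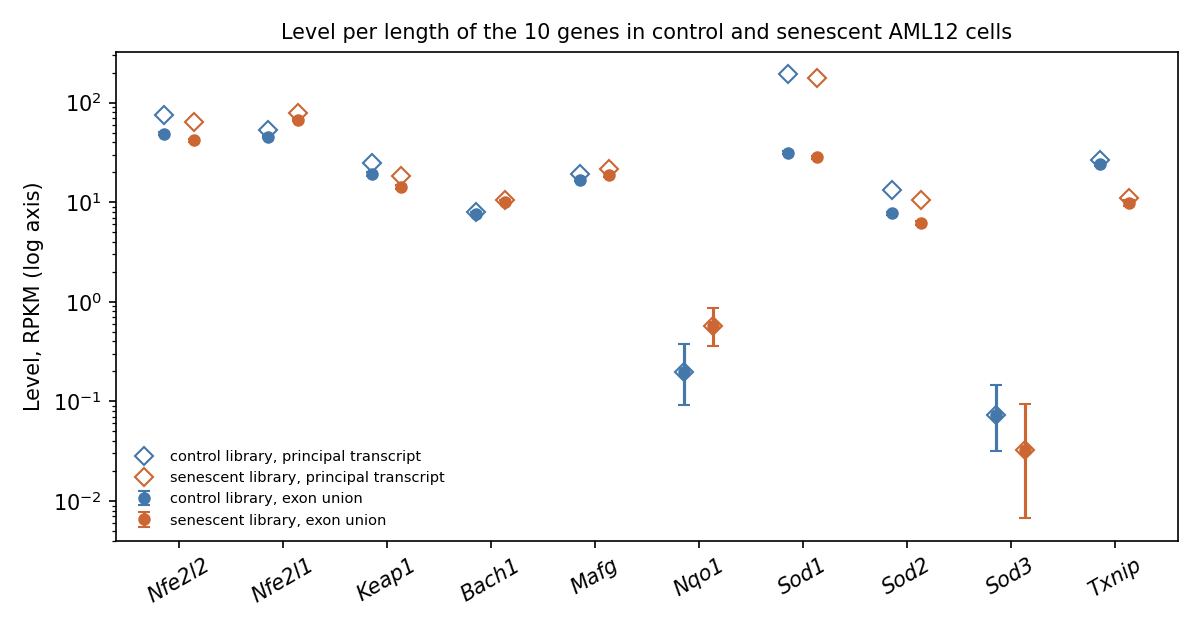
The y axis is the level in RPKM on a log scale and each gene has a control and a senescent point, filled for the length of all exons with 95% counting intervals and open for the principal transcript. Nqo1 and Sod3 lie under 1 RPKM in both libraries, the other 8 genes lie above 6 RPKM, and Sod1 moves most with the length used.

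**Figure D5:**
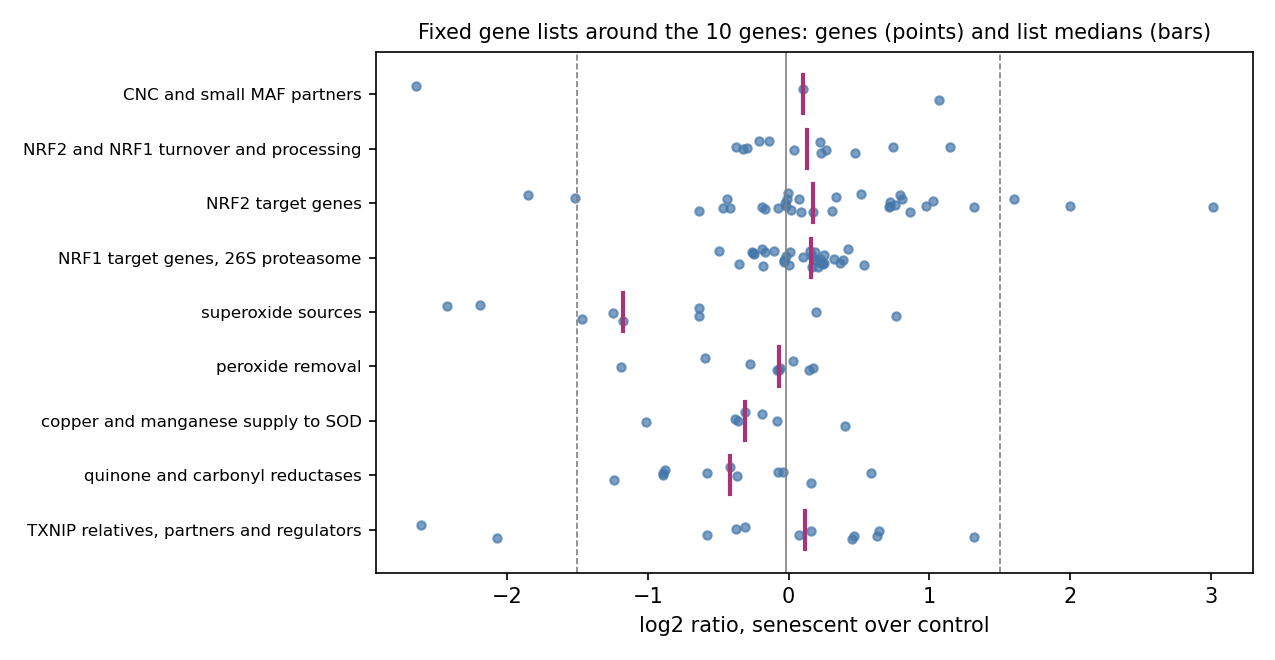
Each point is a gene with at least 10 reads at its log2 ratio on the x axis, in the 9 lists of partners, targets and enzymes (the marker and arrest lists are not drawn), and bars mark list medians. Of these 9 medians, that of the superoxide sources is the lowest, -1.17, and the others run from -0.41 to 0.17.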

How the data were processed

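RNAseq was measured in 1 control and 1 senescent library of AML12 cells, each of RNA pooled from 3 samples. The authors deposited a raw count of reads per Ensembl gene, with no normalization. The labels name CASAVA, STAR, DESeq2, edgeR and mm10, and versions, the counting tool, the annotation and the use of strand are not given in the sources used here. Columns were assigned by the initials of the sample titles. Of 35275 genes, 34490 had a symbol, and positions and lengths came from GENCODE M21 on GRCm38.

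Counts were scaled by TMM (edgeR 4.0.16, R 4.3.3), with factors of 1.04 for control and 0.964 for senescent cells. Log2 ratios took a prior count of 1, and their 95% intervals are exact binomial (Clopper-Pearson) intervals, computed on the fraction of reads from senescent cells. Levels carry exact Poisson intervals, and ratios between members intervals of the odds ratio. Amplified reads carry no molecular identifiers here, so intervals cover counting error only. A gene passed the threshold with at least 10 reads, a ratio past 1.5 and an interval without 0. No test was run, because 1 library per condition leaves no spread between replicates. Python 3.11.15 with scipy 1.17.1 was used. The procedure was tested on simulated counts drawn with counting error only, which says nothing about variation between replicates. Named were all members, up to 4 genes at each end of a list, and genes whose role is background to a member. Members and lists were chosen with earlier results of these data known. Alternatives were total-count, DESeq2 1.42.0 and upper-quartile scaling, other read minimums, prior counts, thresholds and gene lengths, and assumed variation between replicates.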

Additional observations from a re-analysis of the deposited data

How the results depend on the processing

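No paired analysis was possible because each condition has 1 library. No member's ratio reversed its direction under the scaling and prior-count alternatives, and Mafg lost its interval above 0 under total-count scaling. Assumed variation changes the interval only and leaves the ratio as it was. In 55 recomputed member ratios the interval kept its side of 0 or still held it, and in 15 it came to hold 0, 14 of these with assumed variation. The 55 include the prior-count alternatives, where the interval could not change because it does not use the prior count. Total-count scaling shifted the ratios of well-covered genes by -0.107, and those of Nqo1 and Sod3, which have few reads, by less.

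At least 100 reads gave 141 genes higher and 395 lower, in place of 390 and 805, a prior count of 5 gave 259 higher, a threshold of 1 gave 732 and 1435, and a threshold of 2 gave 219 and 460. Members higher numbered 1 (Nqo1) with the smaller prior count tried and 1 with a threshold of 1, which also gave 1 lower (Txnip). With an assumed coefficient of variation of 0.1, 2 members had an interval above 0 and 2 below, and with 0.4 there were 0 of each. Under total-count scaling the median log2 ratios were -0.0037 for CNC and small MAF partners, 0.0504 for the proteasome, 0.0212 for turnover and processing, 0.0647 for NRF2 targets, -0.42 for metal supply, -0.18 for peroxide removal and -0.52 for quinone and carbonyl reductases. The partner median was 0.41 with at least 1 read and 0.59 with at least 100, and that of superoxide sources was -0.64 and -0.94. A read minimum changes which genes enter a median, and total-count scaling moves the ratios nearly together.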

Other observations

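The proteasome genes that NRF1 controls lay close to 0. None of 32 subunit genes of the 26S proteasome passed 1.5, beside 2.71% of all genes higher and 5.60% lower. Of the subunit genes, 18 had an interval above 0 and 9 below, beside 34.0% and 34.6% of all genes. Their median log2 ratio was 0.16, from -0.50 for Psma4, a ring subunit of the core, to 0.53 for Adrm1, a ubiquitin receptor of the cap. The 18 genes of the 19S cap had a median of 0.22, with 14 intervals above 0 and 3 below. The 14 genes of the 20S core, which holds the proteolytic sites, had a median of -0.03, with 4 above and 6 below. The split by particle was chosen after the values were seen and was not tested.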
